A study of Mus musculus with 12 samples.

Results

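Osteoblast cultures labelled Bcl3-/- were followed from day 1 to day 3 in osteogenic medium, and the change over these 2 days is described across all expressed genes. The day 3 libraries of the cultures coded B3, B4 and B6 were set against the day 1 libraries of the same cultures, which gave 6 of the 12 RNA-seq libraries of the study. Both genotypes were on the C57BL/6J background, and the cells came from the calvariae (skull bones) of pups of postnatal day 3 to 5. By the labels each culture held the cells of 1 to 3 calvariae, while the study's methods give 3 per replicate. Medium with 50 µg/ml ascorbic acid and 2 mM β-glycerophosphate was given for 1 or 3 days. Each day had 3 libraries of each genotype, and the wild-type (WT) cultures had the same ages, medium and days. The Bcl3-/- libraries held 20009732 to 38374083 reads counted in genes, and 16318 of 49585 genes passed the filter on low counts. Levels are given as CPM (read counts of a gene scaled to the normalized library size) in cultures B3, B4 and B6, which are replicates 1, 2 and 3. Changes are log2 fold changes of day 3 over day 1 with their standard errors (SE).

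Calvarial osteoblasts grown in ascorbic acid and β-glycerophosphate pass from a dividing stage, through a stage of collagen and matrix deposition, to a stage of mineralization. Osteoblasts answer to Wnt, bone morphogenetic protein (BMP), insulin-like growth factor and Hedgehog signals, and they instruct osteoclasts through RANKL, its decoy receptor osteoprotegerin and cytokines. BCL3 is an atypical IκB protein of the nucleus that binds homodimers of the NF-κB subunits p50 and p52.

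Bcl3 itself (chr7:19808462-19822770, minus strand, GRCm38) measured 17.5, 19.7 and 19.2 CPM on day 1 and 10.2, 9.72 and 8.31 CPM on day 3. In the WT libraries it measured 18.0, 21.8 and 17.8 CPM on day 1 and 14.8, 15.9 and 12.8 CPM on day 3. The genotypes overlapped on day 1, so the counts of this gene did not separate the day 1 libraries by their labels, and statements about genotype rest on the labels. The counts do not show which part of the transcript was read. From day 1 to day 3 Bcl3 fell in the libraries labelled Bcl3-/- (log2 change -0.99 ± 0.12, edgeR adjusted p = 0.000107).

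The cells expressed osteoblast genes on both days. Runx2, the transcription factor that commits cells to the osteoblast lineage, measured 48.6 to 57.2 CPM on day 1 and 45.6 to 60.3 CPM on day 3. Col1a1, the gene of the collagen I α1 chain, measured 38524 to 40382 CPM on day 1 and 44806 to 47401 CPM on day 3. Neither gene was called changed. The sex-linked genes followed the culture codes: Ddx3y, a Y-linked gene, measured 1.52, 78.7 and 36.0 CPM on day 1 and 1.33, 77.7 and 36.2 CPM on day 3. Xist, which is transcribed from an inactive X, measured 59.1, 21.5 and 37.8 CPM on day 1 and 70.6, 27.0 and 56.2 CPM on day 3. In a principal component analysis of the 6 libraries, the first component held 63.1% of the variance and parted the days, with scores of -50.5 to -33.1 on day 1 and 19.5 to 56.5 on day 3. The day 3 libraries were spread more widely than those of day 1. The library of culture B3 (day 3 replicate 1) lay nearest to day 1 on the first component, at 19.5 against 54.9 and 56.5. On the second component, which held 15.6%, cultures B3, B4 and B6 lay at -41.6, -7.56 and 33.8, and on the third, which held 8.50%, culture B4 lay at 30.6 against -19.1 and -18.5. Mitochondrially encoded mRNAs, a measure of RNA quality, rose in 5 of 13 and fell in 0 (median 0.55), with mean log2 CPM of 5.28, 4.86 and 5.08 on day 1 and 5.75, 5.86 and 4.98 on day 3. The number risen was 2 without day 1 replicate 2 or 3 or day 3 replicate 1 or 2, 3 without day 1 replicate 1 or WT day 1 replicate 2 or 3 or WT day 3 replicate 3, and 10 without day 3 replicate 3, and their part in the results was not tested. None of the 8 red cell genes was counted often enough to be tested, and of the neutrophil genes only 2 were, with no call. Genes of macrophages and lymphocytes were measured in every library and are described with their values further on.

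From day 1 to day 3, 2644 genes rose (16.2% of those tested) and 2810 fell (17.2%) at an adjusted p under 0.05 in edgeR's quasi-likelihood test, and 10864 were not called. The median change over all tested genes was 0.00, the median of the risen genes was 0.62 and that of the fallen genes was -0.55. Changes of more than 1 on the log2 scale were found in 744 risen and 718 fallen genes. Of the 5454 called genes, 5379 moved in the same direction in all 3 cultures, as did 9553 of all 16318 tested genes. The call itself favors genes whose cultures agree. On the deposited FPKM values, log2(FPKM + 1) gave 1839 risen and 3570 fallen genes, so that 34.0% of the called genes had risen against 48.5% in the counts. The median of all genes was -0.06 on that scale.

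**Figure D1:**
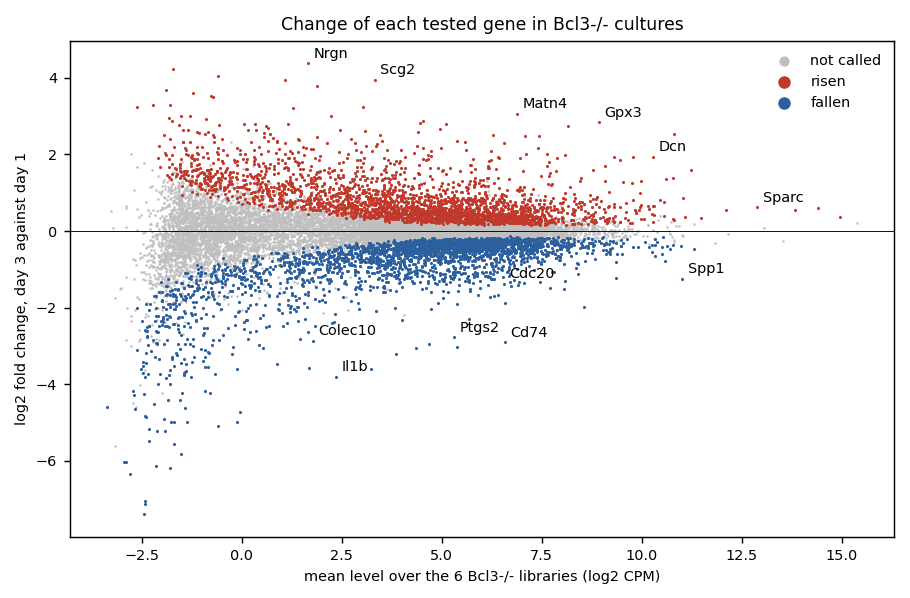
Log2 fold change of day 3 over day 1 in the 3 cultures labelled Bcl3-/- (vertical axis) against the mean log2 CPM of their 6 libraries (horizontal axis), 1 point per tested gene. Of 16318 genes, 2644 rose and 2810 fell, and the largest falls were in genes of low level. Labelled genes include Nrgn at 4.38 and Il1b at -3.80.

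The steepest changes were taken from called protein-coding genes with a mean log2 CPM of at least 1 that moved alike in all 3 cultures. This rule also required that the days did not overlap, so the lack of overlap in these genes follows from it. It held for 2161 risen and 2276 fallen genes. Some of the 15 largest rises are given here. Nrgn (chr9:37544492-37552904), the gene of the calmodulin-binding protein neurogranin, measured 0.733, 0.648 and 0.593 CPM on day 1 and 15.3, 13.8 and 12.4 CPM on day 3, a log2 change of 4.38 ± 0.42 (edgeR adjusted p = 2.07e-05). Gpx3 (chr11:54902453-54910377), which encodes the secreted glutathione peroxidase, measured 162, 178 and 208 CPM on day 1 and 1172, 1412 and 1332 CPM on day 3 (2.84 ± 0.28, edgeR adjusted p = 2.34e-05). For both genes the days were far apart in every culture. Prlr, the prolactin receptor, rose by 3.95, the granin Scg2 by 3.95, the tetraspanin Tspan8 by 3.80, the matrix adaptor matrilin-4 (Matn4) by 3.07, Scube2 by 3.01 and Egfl6 by 2.75. The rises with the smallest p-values were of moderate size, and a small p-value favors genes that are closely matched between cultures. Rflnb, which encodes the filamin-binding protein refilin B, measured 42.0, 41.5 and 43.3 CPM on day 1 and 91.7, 99.97 and 94.7 CPM on day 3 (1.18 ± 0.07, edgeR adjusted p = 1.14e-06). Smoc2 (1.70), the serine protease gene Htra1 (1.52), Smpdl3a (1.73) and the lysosomal enzyme gene Naglu (1.17) belonged to the same group.

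The steepest falls by the same rule, which required a fall in all 3 cultures, were of 2 kinds. In 1 kind the falls were of similar size in the 3 cultures, the inflammatory mediators Ptgs2 and Cxcl1 among them. Ptgs2 (chr1:150100031-150108227), which encodes the inducible cyclooxygenase COX-2, measured 101, 90.4 and 122 CPM on day 1 and 16.7, 13.5 and 15.6 CPM on day 3 (-2.78 ± 0.37, edgeR adjusted p = 0.000185). The neutrophil-attracting chemokine gene Cxcl1 measured 8.82, 13.4 and 10.3 CPM on day 1 and 1.92, 2.07 and 2.10 CPM on day 3 (-2.41 ± 0.19, edgeR adjusted p = 5.21e-06). By the rule, no day 3 value of these genes reached the lowest day 1 value. Colec10 (-2.86), Coch (-2.63), the acid-sensing channel gene Asic3 (-2.48) and Vgf (-2.40) fell in the same way. The other kind, genes of MHC class II, B cells and Il1b, fell steeply in B4 and B6 and much less in B3, as given with the leukocyte genes. By the rule, the largest falls, from Il1b to Cd74, were all of this kind and came ahead of Colec10.

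**Figure D2:**
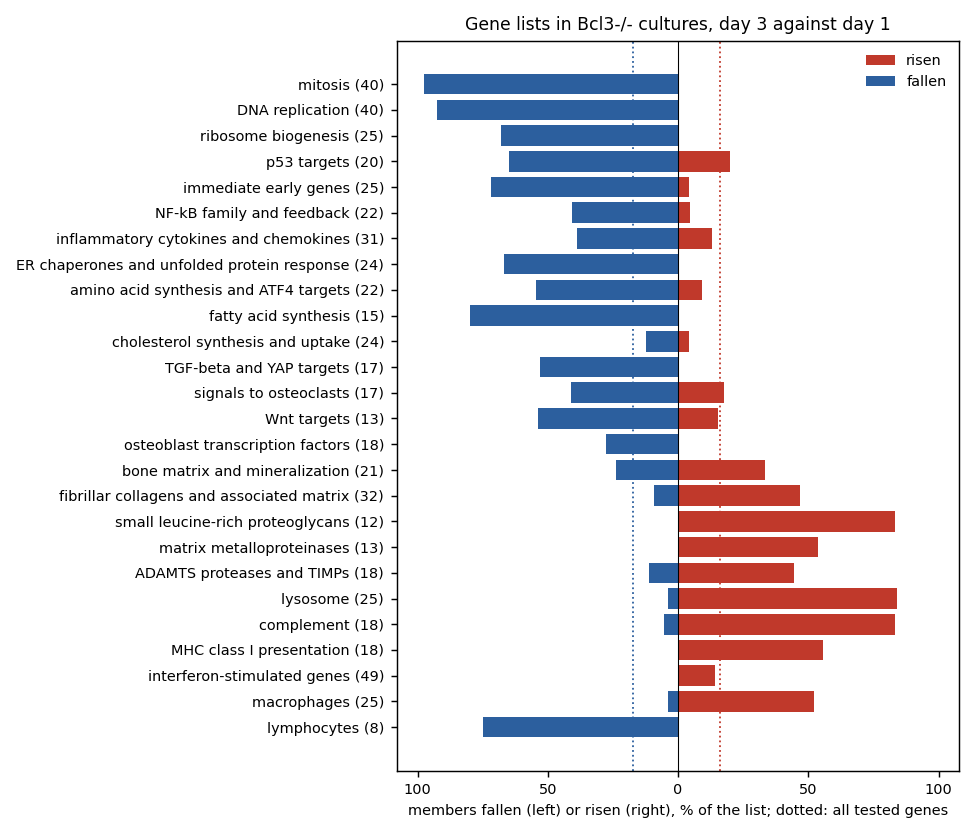
Percent of the tested members of each gene list that rose (to the right) or fell (to the left) from day 1 to day 3 in the cultures labelled Bcl3-/-, with the percent over all tested genes, 16.2% risen and 17.2% fallen, as dotted lines. Mitosis, DNA replication and fatty acid synthesis lay at the falling end, and the lysosome, complement and small leucine-rich proteoglycans at the rising end.

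Genes of cell division fell almost without exception. Of 40 tested mitosis genes 39 fell and none rose, with a median of -1.22, and of 40 tested DNA replication genes 37 fell and none rose, with a median of -0.78. The mean log2 CPM of the mitosis genes went from 6.41 ± 0.03 (SD, n = 3) on day 1 to 5.22 ± 0.03 (SD, n = 3) on day 3. Aurka, the gene of the spindle-pole kinase Aurora A, had the smallest p-value of all falls. It measured 86.4, 89.3 and 88.8 CPM on day 1 and 32.2, 31.1 and 29.9 CPM on day 3 (-1.5 ± 0.06, edgeR adjusted p = 2.33e-07). Cdc20, the activator of the anaphase-promoting complex, went from 146, 155 and 153 CPM to 57.8, 59.4 and 57.9 CPM (-1.37 ± 0.06, edgeR adjusted p = 2.48e-07). Racgap1, a regulator of cytokinesis, went from 147, 159 and 160 CPM to 68.9, 67.4 and 69.9 CPM (-1.18). The cultures lay close together on each day, and the days did not overlap. The naming rule, which took the smallest p-values and required no overlap, selects for both. The kinetochore gene Nuf2 (-1.10), the proliferation marker Mki67 (-1.44), Plk1 (-1.41) and cyclin B1 (Ccnb1, -1.12) fell with them. Among the genes of S phase, Cdc6, which loads the replicative helicase, went from 23.2, 24.7 and 26.2 CPM to 8.91, 7.68 and 8.42 CPM (-1.57 ± 0.09, edgeR adjusted p = 1.18e-06). The ribonucleotide reductase subunit gene Rrm2 (-1.32) and the helicase subunit gene Mcm5 (-1.18) also fell. The securin gene Pttg1 was the single mitosis gene not called (0.31, edgeR adjusted p = 0.263).

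The promoters of several of the most precisely measured of these genes are shown because many mitosis genes are known to carry a cell cycle gene homology region (TTTGAA) near CCAAT boxes. Sequences are from RefSeq (GRCm38.p6), 250 bases before to 50 bases after the annotated start, written 5′ to 3′ on the strand of the gene. All 4 genes lie on the minus strand, with windows at chr2:172370521-172370820 (Aurka), chr4:118437294-118437593 (Cdc20), chr15:99651607-99651906 (Racgap1) and chr1:169531415-169531714 (Nuf2). Capitals mark the letters TTTGAA or CCAAT, or their reverse complements.
Aurka: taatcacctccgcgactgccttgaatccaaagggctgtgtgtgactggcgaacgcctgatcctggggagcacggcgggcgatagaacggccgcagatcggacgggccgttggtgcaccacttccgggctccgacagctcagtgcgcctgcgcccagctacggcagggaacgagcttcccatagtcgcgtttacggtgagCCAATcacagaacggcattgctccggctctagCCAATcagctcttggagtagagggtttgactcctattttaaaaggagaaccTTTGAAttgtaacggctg
Cdc20: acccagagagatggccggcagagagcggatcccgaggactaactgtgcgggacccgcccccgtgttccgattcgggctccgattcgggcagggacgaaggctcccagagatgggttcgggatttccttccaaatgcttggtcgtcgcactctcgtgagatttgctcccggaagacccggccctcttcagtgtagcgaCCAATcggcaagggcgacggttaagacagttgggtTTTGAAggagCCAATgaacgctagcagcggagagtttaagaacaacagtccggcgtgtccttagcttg
Racgap1: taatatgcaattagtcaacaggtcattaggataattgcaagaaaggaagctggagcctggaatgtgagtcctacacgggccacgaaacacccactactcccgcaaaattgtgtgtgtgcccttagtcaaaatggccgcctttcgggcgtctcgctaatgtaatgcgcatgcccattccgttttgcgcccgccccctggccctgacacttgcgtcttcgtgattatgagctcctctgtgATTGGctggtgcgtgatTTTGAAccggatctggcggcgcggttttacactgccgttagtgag
Nuf2: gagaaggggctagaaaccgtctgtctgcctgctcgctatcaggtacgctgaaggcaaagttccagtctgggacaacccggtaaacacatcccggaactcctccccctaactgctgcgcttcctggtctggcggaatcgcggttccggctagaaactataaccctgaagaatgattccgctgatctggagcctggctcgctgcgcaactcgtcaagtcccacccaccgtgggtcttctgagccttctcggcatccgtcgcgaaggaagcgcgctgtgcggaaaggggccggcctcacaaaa
The Aurka window held TTTGAA from base 33 after the start and CCAAT from 51 and 19 bases before it. The Cdc20 window held TTTGAA 18 bases before the start and CCAAT 53 and 8 bases before it. In Racgap1 TTTGAA began at base 6 after the start and the reverse complement of CCAAT stood 12 bases before it, and the Nuf2 window held neither motif.

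Over all 32851 such windows, 17.9% held TTTGAA on either strand, 37.4% held CCAAT and 6.95% held both, with at most 1 base that the motifs can share. Of the 35 windows of 33 mitosis genes, 26 (74.3%) held TTTGAA, 26 held CCAAT and 23 (65.7%) held both. Of the 39 windows of DNA replication genes, 5 (12.8%) held TTTGAA, 21 (53.8%) held CCAAT and 4 (10.3%) held both. TTCCCGCC, a form of the E2F site, was found in 7 of the DNA replication windows (17.9%), in 0 of the mitosis windows and in 2.19% of all windows. These matches describe the letters only and are not binding sites shown by these data.

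Of 18 tested genes in a list of D cyclins and inhibitors of cyclin-dependent kinases, 3 rose and 6 fell (median -0.20). Among the inhibitors, Cdkn1c and Cdkn1a moved in opposite directions. Cdkn1c (chr7:143458339-143461050), which encodes p57, measured 82.3, 67.1 and 69.9 CPM on day 1 and 446, 399 and 386 CPM on day 3 (2.49 ± 0.31, edgeR adjusted p = 0.000124). Cdkn1a, which encodes p21, measured 332, 255 and 313 CPM on day 1 and 197, 197 and 179 CPM on day 3 (-0.65 ± 0.12, edgeR adjusted p = 0.00122). Neither gene overlapped between the days. Cdkn1a is a target of p53, and of 20 tested p53 target genes 13 fell and 4 rose (median -0.38). The ubiquitin ligase gene Mdm2 (-0.59) was among those that fell. The risen genes were Sesn1 (0.55), Trp53inp1 (0.46), Perp (0.45) and Fas (0.28), but the call of Perp was lost without day 1 replicate 2 (edgeR adjusted p = 0.0503), as was the call of Fas in 9 of the 12 fits that left out a library (edgeR adjusted p up to 0.218) and with the culture as a block (edgeR adjusted p = 0.0547). Of 25 ribosome biogenesis genes 17 fell and none rose (median -0.44), among them Utp20 (-0.89) of the small-subunit processome and the pseudouridine synthase gene Dkc1 (-0.68).

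Immediate early genes, which growth factors and stress switch on within minutes, were lower on day 3. Of 25 tested, 18 fell and 1 rose, with a median of -0.76. Fos measured 75.4, 76.9 and 93.2 CPM on day 1 and 26.3, 18.3 and 20.5 CPM on day 3 (-1.92 ± 0.15, edgeR adjusted p = 4.32e-06). Egr1 measured 383, 314 and 349 CPM on day 1 and 119, 113 and 140 CPM on day 3 (-1.49 ± 0.11, edgeR adjusted p = 3.81e-06). Both were lower on day 3 in every culture, without overlap. Junb fell by 1.88 and Zfp36, which encodes an mRNA-destabilizing protein, fell by 1.73 on the log2 scale. The single rise, of Jund (0.27, edgeR adjusted p = 0.0209), was lost without day 1 replicate 1, day 1 replicate 2 or day 3 replicate 3 (edgeR adjusted p = 0.0758, 0.0681 and 0.0589), and with the culture as a block in the 6 libraries alone (0.0518).

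Within the NF-κB family, inducible inhibitors fell and the genes of p50 and p65 were not called. Of 22 tested genes of the family and its feedback 9 fell and 1 rose (median -0.30). Nfkb1, the gene of p50, measured 28.5 to 31.6 CPM and Rela, the gene of p65, 87.9 to 101 CPM over all 6 libraries. Nfkbiz, which encodes another atypical IκB protein, measured 18.0, 22.3 and 26.6 CPM on day 1 and 7.80, 7.06 and 8.31 CPM on day 3 (-1.53 ± 0.19, edgeR adjusted p = 0.00011). All 3 of its day 3 values lay below the day 1 values. The related Nfkbid fell by 2.11, the ubiquitin-editing enzyme gene Tnfaip3 by 1.42 and Nfkbia, which encodes IκBα, by 0.77 on the log2 scale, the last not called with the culture as a block in the 6 libraries alone (edgeR adjusted p = 0.065). Tnfaip3 went from 17.8, 20.0 and 22.6 CPM to 11.8, 4.89 and 5.58 CPM, so its fall was smallest in culture B3. Tnip1, whose product works with that of Tnfaip3, rose (0.65).

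In a list of inflammatory cytokine and chemokine genes, which also held other genes such as C3 and Steap4, more members fell than rose. Of 31 tested, 12 fell and 4 rose, with a median of -0.38. Their mean log2 CPM went from 3.76 to 3.64 in culture B3, from 3.98 to 3.23 in B4 and from 4.14 to 2.98 in B6, so it moved least in B3. Besides Cxcl1, Ptgs2 and Il1b, the neutrophil chemokine gene Cxcl2 (-2.82), Tnf (-2.09) and Il6 (-1.92) fell. With the culture as a block in the 6 libraries alone, the call of Tnf was lost (edgeR adjusted p = 0.0704). The risen genes were Ccl8 (2.20), Steap4 (2.18), the complement gene C3 (2.08) and Cxcl12 (1.38). Cxcl12, a chemokine gene of stromal cells, went from 201, 247 and 228 CPM to 452, 688 and 621 CPM, and C3 from 14.0, 13.5 and 11.4 CPM to 37.9, 59.7 and 67.5 CPM. Neither overlapped between the days.

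Genes of protein folding in the endoplasmic reticulum fell, with 16 of 24 tested fallen and none risen (median -0.37). The chaperone gene Hspa5 measured 1582, 1693 and 1621 CPM on day 1 and 992, 996 and 1104 CPM on day 3 (-0.66 ± 0.07, edgeR adjusted p = 3.55e-05), and Hyou1 fell by 0.96 on the log2 scale. Of 22 genes of amino acid synthesis and ATF4 targets 12 fell and 2 rose. The asparagine synthetase gene Asns fell (-0.71), and the risen genes were the proline synthesis gene Pycr1 (0.87) and Nupr1 (0.89). The count of falls in this list was 7 without day 3 replicate 2.

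The small leucine-rich proteoglycans, which bind collagen fibrils, rose. Of 12 tested proteoglycan genes 10 rose and none fell, with a median of 1.11. Decorin (Dcn, chr10:97479609-97518143) measured 698, 543 and 674 CPM on day 1 and 2380, 2580 and 2395 CPM on day 3 (1.94 ± 0.35, edgeR adjusted p = 0.00144). Osteoglycin (Ogn) went from 354, 321 and 299.9 CPM to 1103, 1369 and 1239 CPM (1.93 ± 0.21, edgeR adjusted p = 4.01e-05). Both were higher on day 3 in every culture, without overlap. Lumican (Lum, 1.58) and osteomodulin (Omd, 0.89) rose with them.

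Of 32 tested genes of fibrillar collagens and their partners 15 rose and 3 fell (median 0.38). Col14a1 (1.90), which encodes a collagen on the surface of fibrils, and periostin (Postn, 1.38) were among the larger rises. Col1a2 rose by 0.60, but was not called on log2(FPKM + 1) (limma adjusted p = 0.0621). The fallen genes were Tnn (-0.69), Col5a1 (-0.38) and Col6a3 (-0.36), and all 3 calls were fragile. That of Tnn was lost without day 1 replicate 2, day 1 replicate 3 or day 3 replicate 2 (edgeR adjusted p of 0.053 to 0.0732), that of Col5a1 without day 3 replicate 2 (0.0561), and that of Col6a3 in 9 of 12 fits (up to 0.151). Genes of elastic fibers and microfibrils moved both ways, with 5 of 15 risen and 4 fallen (median 0.10), Mfap2 (2.30) and elastin (Eln, 1.64) up and Ltbp1 (-1.06) and Emilin2 (-0.74) down. Of 16 basement membrane genes 4 rose and 1 fell, with 2 risen without day 3 replicate 2 and 2 fallen without day 3 replicate 3. Of 14 genes of fibroblasts and tendon 7 rose and 2 fell. The tendon membrane protein gene tenomodulin (Tnmd) went from 273, 222 and 267 CPM to 724, 846 and 748 CPM (1.60), Dpt rose by 1.88 and the tendon transcription factor gene Scx by 0.71.

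Several enzymes that cut the matrix rose. Of 13 tested matrix metalloproteinase genes 7 rose and none fell (median 0.62). Mmp13 (chr9:7272514-7283331), the gene of collagenase-3, measured 428, 513 and 558 CPM on day 1 and 749, 683 and 998 CPM on day 3 (0.70 ± 0.17, edgeR adjusted p = 0.00748). Mmp14 rose by 0.65 and Mmp2 by 0.62. Timp1, an inhibitor of these enzymes, measured 530, 428 and 556 CPM on day 1 and 267, 276 and 156 CPM on day 3 (-1.11 ± 0.23, edgeR adjusted p = 0.00359). The days did not overlap for either gene. Of 18 ADAMTS protease and TIMP genes 8 rose and 2 fell, the falls being Timp1 and Adamtsl1 (-0.40), and the count of rises was 5 without day 1 replicate 3 and 5 without day 3 replicate 2. Adamts17 (2.06) and Adamts2 (1.22), which removes the N-propeptide of procollagens, rose. Of 30 genes of collagen processing and cross-linking 9 rose and 5 fell. Pcolce2, an enhancer of C-propeptide removal, went from 19.1, 23.8 and 20.6 CPM to 4.33, 6.25 and 4.26 CPM (-2.08), and the lysyl hydroxylase gene Plod3 fell by 0.69 on the log2 scale.

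The genes of bone formation moved both ways. None of 18 tested osteoblast transcription factor genes rose and 5 fell (median -0.04), among them Sp7 (-0.93), Msx2 (-0.98), Tcf7 (-0.93) and Alx4 (-0.47). Sp7, which encodes osterix, acts after Runx2 in the lineage. It measured 30.3, 28.4 and 36.2 CPM on day 1 and 18.8, 12.4 and 18.7 CPM on day 3 (edgeR adjusted p = 0.00444), without overlap.

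Of 21 tested genes of bone matrix and mineralization 7 rose and 5 fell (median 0.39). Bglap and Bglap2 encode osteocalcin and are near-identical neighbors, so the share of reads in each is uncertain. Bglap measured 0.708, 0.580 and 0.955 CPM on day 1 and 3.54, 3.92 and 2.00 CPM on day 3 (2.09 ± 0.37, edgeR adjusted p = 0.00132), and Bglap2 rose by 1.71. All day 3 values of Bglap lay above day 1, and culture B6 had the lowest. Sparc, which encodes osteonectin, rose by 0.63. Of the other rises, Fam20c (0.24) lost its call in 7 of 12 fits that left out a library and with the culture as a block (edgeR adjusted p = 0.0574), and the osteocyte gene Dmp1 (1.58) lost it without day 1 replicate 1, 2 or 3 or day 3 replicate 2 (edgeR adjusted p up to 0.109). Ibsp, the bone sialoprotein gene, measured 2.71, 5.42 and 5.24 CPM on day 1 and 12.7, 24.1 and 13.1 CPM on day 3, higher on day 3 in every culture but not called (edgeR adjusted p = 0.107).

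Spp1 (chr5:104435118-104441050), the gene of osteopontin, fell. It measured 3265, 2730 and 3684 CPM on day 1 and 1600, 1389 and 1094 CPM on day 3 (-1.25 ± 0.16, edgeR adjusted p = 0.000139). Alpl, the gene of tissue-nonspecific alkaline phosphatase, measured 75.6, 125 and 115 CPM on day 1 and 55.5, 57.7 and 55.7 CPM on day 3 (-0.90 ± 0.21, edgeR adjusted p = 0.00659). Neither overlapped between the days, and the day 1 level of Alpl in culture B3 was the lowest. The pyrophosphate-generating enzyme gene Enpp1 (-1.17) and the phosphate transporter gene Slc20a1 (-1.19) fell with them.

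**Figure D3:**
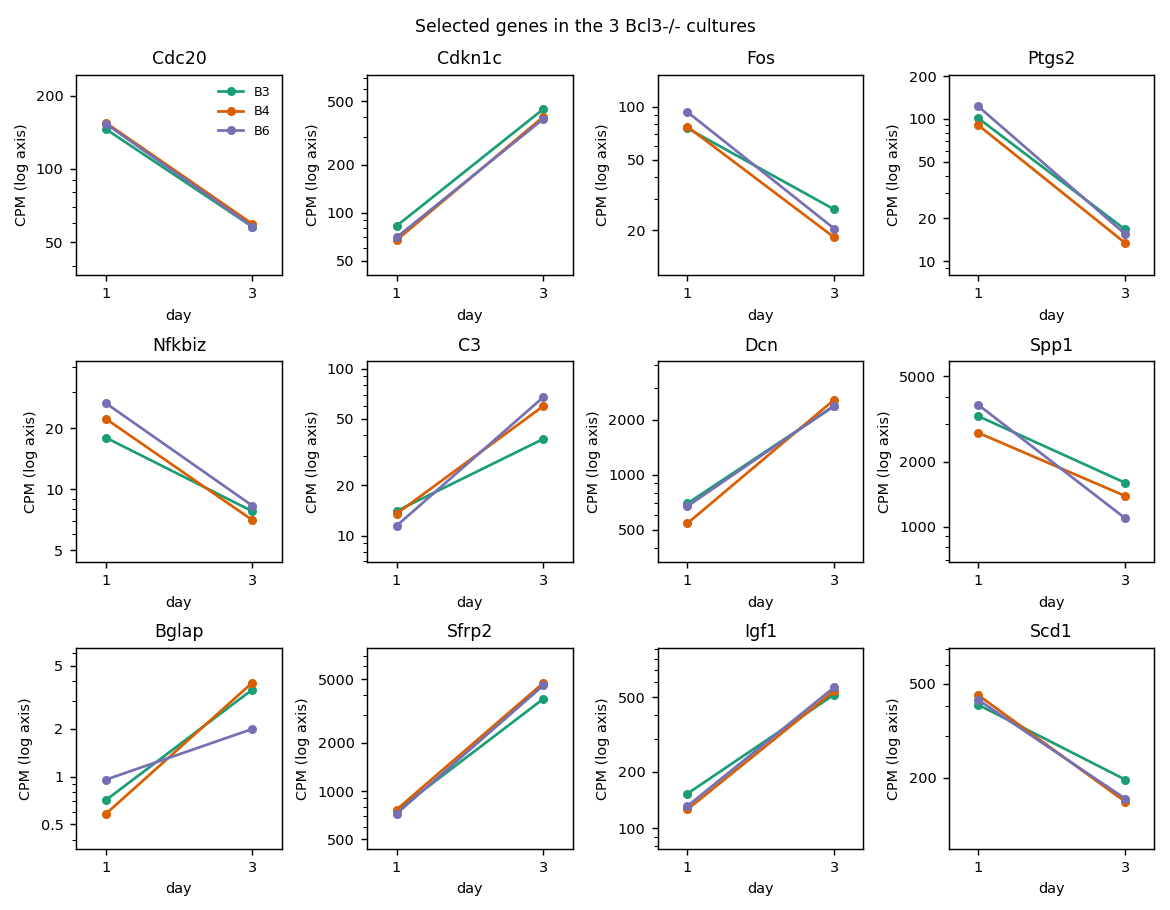
CPM (log axes) of 12 genes on day 1 and day 3, with a line for each of the cultures B3, B4 and B6 labelled Bcl3-/-. The 3 lines of each gene ran the same way, up for Cdkn1c, C3, Dcn, Bglap, Sfrp2 and Igf1 and down for Cdc20, Fos, Ptgs2, Nfkbiz, Spp1 and Scd1, with Bglap between 0.580 and 3.92 CPM and Sfrp2 between 722 and 4718 CPM.

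Genes of Wnt signaling moved both ways. Of 10 tested Wnt ligands Wnt16 and Wnt7b rose and Wnt2, Wnt5a, Wnt9a and Wnt11 fell. Wnt16 measured 5.56, 7.33 and 7.84 CPM on day 1 and 16.4, 20.5 and 27.1 CPM on day 3 (1.62 ± 0.30, edgeR adjusted p = 0.00155). Wnt2 went from 5.87, 4.74 and 4.84 CPM to 1.27, 1.26 and 1.37 CPM (-1.99), Wnt5a fell by 0.66 and Wnt9a by 0.74 on the log2 scale. Neither Wnt16 nor Wnt2 overlapped between the days. The rise of Wnt7b (1.10) was not called without day 3 replicate 1 (edgeR adjusted p = 0.065), and the fall of Wnt11 (-0.90) was lost in 8 of 12 fits that left out a library and with the culture as a block (edgeR adjusted p = 0.0669).

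Sfrp2 (chr3:83766321-83774316), which encodes a secreted Wnt-binding protein, measured 756, 766 and 722 CPM on day 1 and 3755, 4718 and 4557 CPM on day 3 (2.54 ± 0.57, edgeR adjusted p = 0.00539). Sfrp4 (1.37), Frzb (0.88), Sfrp1 (0.82) and Dkk3 (0.32) made up the other 4 of the 5 risen antagonists among 9 tested. The calls of Sfrp1 and Dkk3 were lost in 4 and 8 of 12 fits. The number of risen antagonists was 3 without day 1 replicate 1, without day 1 replicate 3 and without day 3 replicate 3. Notum, a feedback inhibitor that Wnt signaling induces and that removes the lipid of Wnt proteins, went the other way, from 1.87, 1.84 and 2.77 CPM to 0.618, 0.518 and 0.421 CPM (-2.02 ± 0.38, edgeR adjusted p = 0.00182). Of 13 Wnt target genes 7 fell, Notum and Tcf7 among them, and 2 rose (median -0.43). The risen targets were Nkd1 (0.86), whose call was lost without day 1 replicate 3 (edgeR adjusted p = 0.0512), and Lgr5 (1.63), a receptor of R-spondins. Rspo2, which raises the number of Wnt receptors, went from 15.0, 18.7 and 18.0 CPM to 39.5, 54.8 and 67.5 CPM (1.65 ± 0.18, edgeR adjusted p = 4.29e-05), and Rspo3 rose by 1.39. They belong to a list of 21 receptors, co-receptors and their partners of which 7 rose and 6 fell, among these Lgr6 (-1.91), which was not called on log2(FPKM + 1) (limma adjusted p = 0.169).

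The BMP antagonist Chrdl1 measured 54.8, 62.6 and 55.7 CPM on day 1 and 244, 330 and 386 CPM on day 3 (2.47 ± 0.31, edgeR adjusted p = 0.000124), with no overlap. Of 19 tested BMP ligands and antagonists 7 rose and 3 fell, the falls being Bmper (-0.80), Fstl3 (-0.95) and the antagonist Grem1 (-1.17), whose call was lost in 4 of 12 fits (edgeR adjusted p up to 0.123). Of 12 BMP target genes 4 rose and 4 fell (median 0.12). The risen targets were the 4 Id genes, inhibitors of basic helix-loop-helix factors, and the fallen ones Msx2, Bambi (-0.54), Smad6 (-0.54) and Smad7 (-0.51), the last 3 of which encode inhibitors of the pathway. The call of Smad6 was lost without day 1 replicate 2 or day 3 replicate 2 (edgeR adjusted p up to 0.0554) and that of Smad7 in 4 of 12 fits (up to 0.115). Id2 rose from 68.0, 69.1 and 79.3 CPM to 144, 133 and 102 CPM (0.81 ± 0.15, edgeR adjusted p = 0.00193) in every culture. Id1 measured 28.3, 24.0 and 30.7 CPM on day 1 and 42.5, 43.7 and 31.6 CPM on day 3 (0.51, edgeR adjusted p = 0.0378), and it hardly moved in culture B6. Its call was lost without day 1 replicate 1 (edgeR adjusted p = 0.0753), day 1 replicate 2 (0.134), day 3 replicate 1 (0.102) or day 3 replicate 2 (0.133), and with the culture as a block (0.0762). Id3 (0.55) lost its call without day 1 replicate 1 or 2 or day 3 replicate 2 (edgeR adjusted p of 0.0568 to 0.0798) and Id4 (0.61) without day 3 replicate 3 (0.0701). The number of risen targets was 2 without day 1 replicate 1, day 1 replicate 2 or day 3 replicate 2, and 1 on each FPKM scale.

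Targets of TGF-β and YAP fell, with 9 of 17 tested fallen and none risen (median -0.37), and 5 fallen without day 1 replicate 3. The matricellular Ccn1 fell by 1.22 on the log2 scale. The activin subunit genes fell too. Inhbb measured 109, 104 and 130 CPM on day 1 and 23.6, 20.0 and 26.0 CPM on day 3 (-2.30 ± 0.22, edgeR adjusted p = 2.18e-05), and Inhba fell by 1.12 on the log2 scale. Of 15 contractile genes of smooth muscle 6 fell, calponin (Cnn1, -1.04) among them, and Mylk rose (1.54).

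Igf1, which encodes insulin-like growth factor 1, measured 153, 126 and 131 CPM on day 1 and 516, 540 and 563 CPM on day 3 (1.98 ± 0.22, edgeR adjusted p = 4.72e-05). The binding protein genes Igfbp3 (1.80) and Igfbp4 (1.35) rose, and the receptor gene Igf1r fell (-0.52). The fourth rise among the 15 genes of this pathway, of Irs1 (0.34), was lost without day 1 replicate 1 or 3 or day 3 replicate 3 (edgeR adjusted p of 0.0527 to 0.0951) and with the culture as a block in the 6 libraries alone (0.0755). With the culture as a block 8 genes of this pathway were called risen. In the Hedgehog pathway, Hhip (-1.99), Ptch1 (-0.87) and Gli3 (-0.35) fell and Gas1 (0.83) and Boc (0.37) rose, of 11 tested. Hhip and Ptch1 are both targets and inhibitors of the pathway, and Ptch1 lost its call without day 1 replicate 1 or 2 or day 3 replicate 1 or 2 (edgeR adjusted p up to 0.104) and with that block (0.0765).

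Of 17 tested signals to osteoclasts 7 fell and 3 rose (median -0.46). Tnfrsf11b, the gene of osteoprotegerin, measured 87.8, 77.8 and 98.8 CPM on day 1 and 36.3, 41.7 and 42.9 CPM on day 3 (-1.13 ± 0.28, edgeR adjusted p = 0.0083), and the days did not overlap. Ptgs2, Il6 and Wnt5a were also among the fallen genes. The risen ones were Cxcl12, Wnt16 and Il34 (0.88), which encodes a ligand of the receptor CSF1R.

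Lysosomal genes rose together, 21 of 25 tested, with a median of 0.55. Hexa, the gene of the hexosaminidase α subunit, measured 228, 220 and 234 CPM on day 1 and 442, 451 and 434 CPM on day 3 (0.96 ± 0.08, edgeR adjusted p = 1.03e-05), and the cathepsin K gene Ctsk rose by 1.00. The α-galactosidase gene Gla was the single member called lower (-0.27, edgeR adjusted p = 0.0474), and this call was lost in 9 of 12 fits that left out a library and with the culture as a block (edgeR adjusted p = 0.053).

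Of 18 tested complement genes 15 rose and 1 fell, with a median of 1.34. Besides C3 these included the C1 inhibitor gene Serping1 (1.94) and C4b (1.56), whose reads may be shared with a near-identical copy. Of the risen members, C1qa, C1qb, C1qc and C3ar1 are genes of macrophages. The fall of Masp1 (-0.53) was lost without day 1 replicate 1 (edgeR adjusted p = 0.0619), day 1 replicate 3 (0.0563) or day 3 replicate 2 (0.0855). Of 18 genes of MHC class I presentation 10 rose and none fell (median 0.61), with 7 to 13 risen and 0 to 2 fallen when 1 library was left out. Their mean log2 CPM went from 5.41 to 6.26 in culture B3 and from 5.40 to 5.99 in B4. In B6 it hardly moved, from 5.77 to 5.82. H2-K1, which has close relatives in the genome, measured 178, 181 and 233 CPM on day 1 and 435, 451 and 438 CPM on day 3 (1.16 ± 0.16, edgeR adjusted p = 0.000227), and B2m, the gene of its light chain, rose by 1.32. Both days were well apart in H2-K1. Of 12 genes of cholesterol efflux and lipid carriers 6 rose and 2 fell (median 0.44), the apolipoprotein genes Apod (2.01) and Apoe (1.43) up and Lpcat3 (-0.51) down among them.

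Of 25 tested macrophage genes 13 rose and 1 fell (median 0.75), and in bulk RNA more cells of a type and more RNA per cell cannot be told apart. Their mean log2 CPM went from 3.07 to 4.18 in culture B3 and from 3.23 to 3.58 in B4, and from 3.35 to 3.08 in B6, so it went down in 1 of the 3 cultures, and their summed level went from 559 to 624 CPM on day 1 to 688 to 1276 CPM on day 3. The mannose receptor gene Mrc1 measured 12.4, 8.80 and 8.07 CPM on day 1 and 56.2, 42.3 and 38.6 CPM on day 3 (2.22 ± 0.28, edgeR adjusted p = 0.00014). Cd68 measured 9.46, 11.1 and 11.8 CPM on day 1 and 37.9, 25.8 and 18.1 CPM on day 3 (1.35 ± 0.22, edgeR adjusted p = 0.000786). On day 3 both were highest in culture B3. The complement genes C1qa (1.38), C1qb (1.53) and C1qc (1.64) rose with Fcgr3 (1.44), Trem2 (1.40) and Adgre1 (1.22). The fall of the fractalkine receptor gene Cx3cr1 (-1.35, edgeR adjusted p = 0.0302) was lost without day 1 replicate 1 (0.0736), day 1 replicate 3 (0.103) or day 3 replicate 3 (0.0501), in the 6 libraries alone (0.0623) and with the culture as a block in them (0.108). Without day 3 replicate 1, 10 macrophage genes rose and 5 fell. Of 9 osteoclast genes, Acp5 (1.39), Atp6v0d2 (1.88), Ctsk and Mmp9 rose and Dcstamp fell (-2.09), the last not called with the culture as a block in the 6 libraries alone (edgeR adjusted p = 0.0604). The part of these cells in the lysosomal and complement rises was not tested.

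The genes of MHC class II, of B cells and Il1b split the cultures on day 3. H2-Ab1, a class II chain gene of antigen-presenting cells, measured 119, 268 and 344 CPM on day 1 and 83.7, 2.46 and 2.10 CPM on day 3. Cd74, the invariant chain gene, measured 223, 511 and 635 CPM on day 1 and 166, 8.97 and 7.10 CPM on day 3. Both genes dropped to near 0 in cultures B4 and B6 and fell much less in B3. Il1b, the interleukin-1β gene, measured 21.6, 53.1 and 66.9 CPM on day 1 and 9.27, 0.0324 and 0.210 CPM on day 3. Jchain, of antibody-secreting cells, went from 6.62, 28.8 and 38.7 CPM to 5.56, 0.0972 and 0.105 CPM. In each of these genes B3 had the lowest level on day 1 and the highest on day 3.

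The log2 changes with all libraries were -3.03 ± 1.00 for H2-Ab1 (edgeR adjusted p = 0.0348), -2.90 ± 0.91 for Cd74 (0.0289), -3.80 ± 0.89 for Il1b (0.00648) and -3.58 ± 0.92 for Jchain (0.0105). Without day 3 replicate 1 they were -6.72, -5.81, -8.81 and -7.88, and each passed edgeR's test, with adjusted p-values of 2.4e-05, 2.04e-05, 4.16e-05 and 0.000336. The call of H2-Ab1 was lost without day 1 replicate 2 (0.074), day 1 replicate 3 (0.0943), day 3 replicate 2 (0.0776) or day 3 replicate 3 (0.0596), and that of Cd74 without the same libraries (0.0646, 0.081, 0.072 and 0.0501). With the culture as a block in all 12 libraries the changes were -4.73 for H2-Ab1 and -4.43 for Cd74, and both remained called by edgeR. With the block in the 6 libraries alone the calls of H2-Ab1 (0.0698), Cd74 (0.064), Il1b (0.0548) and Jchain (0.0937) were lost. Of 8 tested lymphocyte genes 6 fell and none rose (median -2.09), with a summed level of 7.18 to 11.2 CPM on day 1 and 3.16 to 4.81 CPM on day 3. They included the B cell receptor genes Cd79a (-3.29) and Cd79b (-3.75), at 2.54 CPM or less in every library. The call of Cd79b was lost without day 3 replicate 2 (edgeR adjusted p = 0.0516), where 3 of these genes were called. The mean level of the macrophage genes, like these genes, was lowest in B3 on day 1 and highest in B3 on day 3, while Mrc1 and Cd68 were higher on day 3 in every culture.

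**Figure D4:**
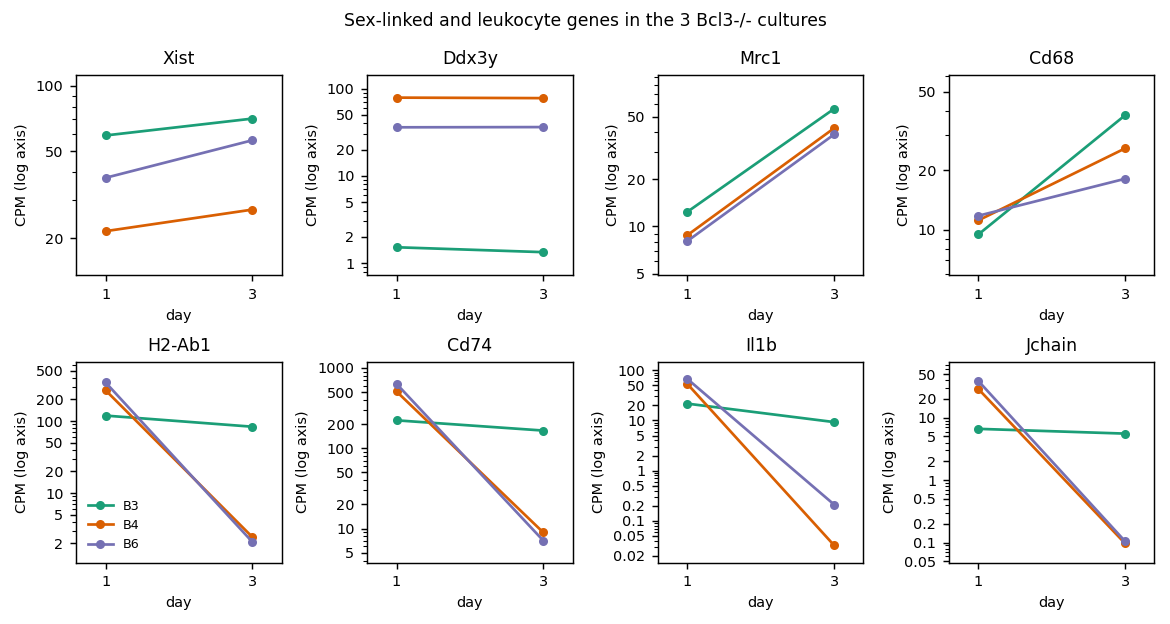
CPM (log axes) of 2 sex-linked genes (Xist, Ddx3y), 2 macrophage genes (Mrc1, Cd68) and 4 genes that split the cultures (H2-Ab1, Cd74, Il1b, Jchain) on day 1 and day 3, with a line for each of the cultures B3, B4 and B6 labelled Bcl3-/-. The sex-linked genes kept their order between days, Mrc1 and Cd68 rose in each culture, and H2-Ab1, Cd74, Il1b and Jchain dropped in B4 and B6 and less in B3.

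Genes of fatty acid synthesis fell, 12 of 15 tested with none risen (median -0.52). Scd1 (chr19:44394455-44407879), the gene of stearoyl-CoA desaturase, measured 406, 446 and 426 CPM on day 1 and 196, 158 and 163 CPM on day 3 (-1.30 ± 0.18, edgeR adjusted p = 0.000255). The desaturase gene Fads2 (-0.79), the regulator gene Srebf1 (-0.66) and Fasn (-0.58), which encodes fatty acid synthase, fell with it. The days did not overlap for Scd1. Of 24 cholesterol genes 3 fell and 1 rose (median -0.13). Lss was among the fallen genes (-0.62), and Insig1 rose (0.59). The number of fallen cholesterol genes was 1 without any day 1 library labelled Bcl3-/- or without day 3 replicate 2, 6 without day 3 replicate 1, 5 and 6 without WT day 1 replicates 1 and 3, 6 with the culture as a block, and 8 to 9 on FPKM scales.

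Of 34 genes of glycolysis and the hypoxia response 10 fell and 5 rose, with 6 fallen without day 1 replicate 3. The carbonic anhydrase genes Car9 (1.28) and Car12 (-1.32) moved in opposite directions, as did Pdk1 (1.23) and the glucose transporter gene Slc2a1 (-0.77). Nqo1, a target of NRF2, fell by 1.23 on the log2 scale. Of 14 tested cartilage genes 3 rose and 4 fell (median -0.29), with 1 to 5 fallen when 1 library was left out. Col2a1, which encodes collagen II, went from 616, 891 and 746 CPM to 176, 213 and 184 CPM (-1.98 ± 0.55, edgeR adjusted p = 0.0159), while Comp (1.54) and Col9a2 (1.86) rose.

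The same 2 days in the WT cultures raised 3360 genes (20.6%) and lowered 2925 (17.9%), and 3992 genes were called in the same direction in both genotypes against 27 in opposite directions. The genotypes shared no library, and the difference between their changes was tested as an interaction. It was called for 183 of 16318 genes, with 155 lower in the cultures labelled Bcl3-/- than in WT (0.95%) and 28 higher (0.172%), and 1961 genes had an unadjusted p under 0.05. Of the 155, 143 rose in WT, and in the cultures labelled Bcl3-/- 41 rose, 29 fell and 85 were not called. Of the 28, 24 fell in WT, and in the cultures labelled Bcl3-/- 8 rose, 5 fell and 15 were not called. With the culture as a block the number of differences was 292. It depended on single libraries, being 6, 2 and 475 without WT day 1 replicates 1, 2 and 3, 51, 2 and 1 without Bcl3-/- day 1 replicates 1, 2 and 3, 19, 5 and 83 without WT day 3 replicates 1, 2 and 3, and 353, 1 and 32 without Bcl3-/- day 3 replicates 1, 2 and 3. Every library thus weighed on this number.

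Of the gene lists, interferon-stimulated genes held the most of these differences. In the cultures labelled Bcl3-/- 7 of 49 rose and 0 fell (median 0.61), where 16.2% of all tested genes rose and 17.2% fell. The share risen was thus not above that of all tested genes. The number risen was 1 without day 1 replicate 1 or 2 or day 3 replicate 1, 4 without day 3 replicate 2, and 15 without day 1 replicate 3. It was 12 and 26 without WT day 1 replicates 1 and 3, and 18 with the culture as a block in the 6 libraries alone. The mean log2 CPM of the list was 4.87 ± 0.39 (SD, n = 3) on day 1 and 5.46 ± 0.19 on day 3 in the libraries labelled Bcl3-/-, and 2.91 ± 0.79 and 5.85 ± 0.11 in WT. It went from 4.62 to 5.67 in culture B3 and from 4.67 to 5.43 in B4. In B6 it did not rise, with 5.32 on day 1 and 5.30 on day 3. The means of the genotypes lay further apart on day 1 than on day 3. In WT 47 of 49 rose (median 2.84), and the difference was called for 30, or for 0 to 45 when a library was left out. Ifit2 rose from 27.7, 28.9 and 33.5 CPM to 43.1, 40.5 and 46.9 CPM (0.54), with a difference from WT of -1.28 (edgeR adjusted p = 0.0206).

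Lipid synthesis genes differed as well, by 9 of the 15 fatty acid genes (0 to 9 when a library was left out) and 13 of the 24 cholesterol genes (0 to 22), all lower in the change of the cultures labelled Bcl3-/-. For Scd1 the difference was -1.73 ± 0.25 (edgeR adjusted p = 0.0206), and this call was lost in 5 of 12 fits that left out a library. The mean log2 CPM of the cholesterol genes was 6.87 ± 0.01 (SD, n = 3) on day 1 and 6.75 ± 0.15 on day 3 in the libraries labelled Bcl3-/-, and 6.29 ± 0.27 and 7.10 ± 0.04 in WT.

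**Figure D5:**
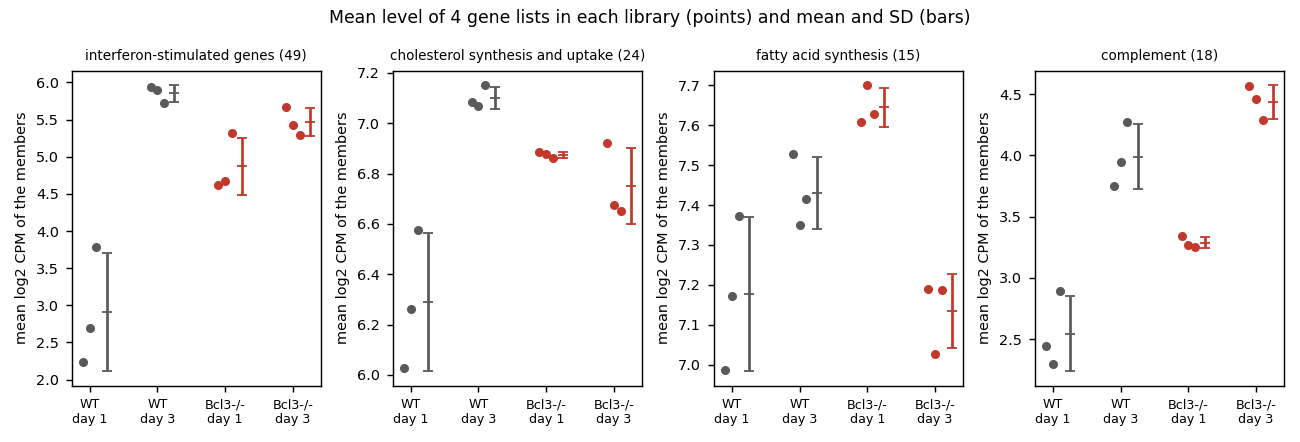
Mean log2 CPM (vertical axes) over the tested members of 4 gene lists in each of the 12 libraries (points), by genotype label and day, with the mean and SD of each group of 3 as bars. In the interferon-stimulated genes the libraries labelled Bcl3-/- went from a mean of 4.87 to 5.46 and those of WT from 2.91 to 5.85. Culture B6 did not rise, at 5.32 on day 1 and 5.30 on day 3.

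Of 24 genes whose difference was followed through the 12 fits that left out a library, Mmp13 was the single gene that kept its call in all of them. Its change was 0.70 in the cultures labelled Bcl3-/- and 3.09 in WT, a difference of -2.39 ± 0.24 (edgeR adjusted p = 0.00527, and at most 0.0288 in those fits). In WT it went from 123, 93.1 and 142 CPM to 1121, 979 and 953 CPM, so the genotypes were separate on day 1 and overlapped on day 3. Spp1, with its fall of 1.25 in the cultures labelled Bcl3-/-, had a change of 0.02 in WT and a difference of -1.27 (edgeR adjusted p = 0.0309), lost in 9 of 12 fits. Nptx1, the gene of neuronal pentraxin 1, went from 1.11, 1.5 and 1.45 CPM to 5.14, 8.19 and 5.05 CPM (2.19 ± 0.27) against -0.36 in WT, a difference of 2.55 (edgeR adjusted p = 0.0206), lost in 6 of 12 fits. Sp7 fell less than in WT (difference 1.34, edgeR adjusted p = 0.0476, lost in 11 of 12 fits). Of the BMP targets, Id1 (1.29), Smad9 (1.14) and Atoh8 (1.34) had a higher change than in WT, and these edgeR calls were lost in 8, 11 and 10 of 12 fits.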

How the data were processed

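RNA was measured by polyA-selected SMART-seq v4 libraries sequenced as read pairs on a HiSeq 4000. Per the labels and the study's methods, the authors trimmed reads with Trim Galore, aligned them to GRCm38 with TopHat2, and deposited raw read counts per gene from HTSeq and FPKM values from Cufflinks. Versions and the strand setting of HTSeq are not given in the sources used here, so sense and antisense reads cannot be told apart. The counts held 49585 genes, of which GENCODE M21 named 49326, and 5 rows outside genes with 12.3% to 14.7% of the reads, which were left out.

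The counts of all 12 libraries (20009732 to 41953891 per library in genes) were filtered with filterByExpr and scaled by TMM. They were fitted with edgeR 4.0.16 (R 4.3.3) as 4 groups by the quasi-likelihood test. P-values had Benjamini-Hochberg adjustment over all tested genes and a threshold of 0.05. A prior count of 2 was set for log2 CPM values only. The change in the cultures labelled Bcl3-/- and its difference from WT were contrasts of this fit. The labels give the same culture codes on both days, and the sex-linked genes followed the codes, so culture numbers pair the libraries and a fit with the culture as a block was run. Deviations of same-numbered libraries correlated at -0.13, -0.02 and -0.16 in the cultures labelled Bcl3-/- and at 0.24 to 0.33 in WT. Alternatives (26 settings) included other normalizations and filters, DESeq2 1.42.0, limma 3.58.1 on log2(FPKM + 1) and log2(FPKM + 0.1), thinned counts and leaving out each library. P-values measure the spread between these cultures, and with 3 per group precision is limited by their number.

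Members and the 60 gene lists were chosen with earlier results of these data known. Named genes were Bcl3, the 15 largest rises and falls and the 10 smallest p-values each way by a rule, and members of the lists. From all of these a selection is named. The rule took called protein-coding genes with a mean log2 CPM of at least 1. They had to move alike in all 3 cultures, without overlap between the days. Sp7, Nptx1 and other single differences were picked after their values were seen. FPKM values of 49318 genes were used. Promoter windows came from RefSeq (GRCm38.p6, 32851 windows of 27025 genes). Some genes are not reported here.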

Additional observations from a re-analysis of the deposited data

Results flagged for a closer look

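The change from day 1 to day 3 differed between the cultures labelled Bcl3-/- and WT, by the interaction test of edgeR, for 24 of the genes followed here, and the values are log2 changes in Bcl3-/- minus log2 changes in WT. Among interferon-stimulated genes the difference was -3.86 for Ifi44, -3.02 for Irf7, -2.24 for Cmpk2 and -1.28 for Ifit2. Among genes of lipid metabolism it was -1.73 for Scd1, -1.29 for Fads2, -1.27 for Lss, -0.74 for Lpcat3 and -0.69 for Srebf1. Among matrix genes it was -2.39 for Mmp13, -2.48 for the stromelysin gene Mmp3, -1.27 for Spp1 and 1.33 for Timp3. In the BMP pathway it was 2.51 for the antagonist noggin (Nog), 1.29 for Id1, 1.14 for Smad9 and 1.34 for Atoh8. It was also 1.34 for Sp7, -1.20 for Fos, -0.51 for Rflnb, -0.42 for Nuf2, -2.61 for Cx3cr1, 2.55 for Nptx1 and 1.44 for Prokr1.

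With the culture as a block, the calls of Cx3cr1 (edgeR adjusted p = 0.0666), Nuf2 (0.0816), Id1 (0.0666), Srebf1 (0.0519), Prokr1 (0.0741), Smad9 (0.0798) and Mmp3 (0.0622) were lost. The difference in Cx3cr1 went with a fall in the cultures labelled Bcl3-/- whose call was itself lost without day 1 replicate 1 (edgeR adjusted p = 0.0736), day 1 replicate 3 (0.103) or day 3 replicate 3 (0.0501), and with the culture as a block in the 6 libraries alone (0.108). The cause of these differences was not tested.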

How the results depend on the processing

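The 2644 risen and 2810 fallen genes became 744 and 718 at a log2 change over 1, and 1514 and 1641 at an adjusted p under 0.01. On log2(FPKM + 1), for genes that reached 1 FPKM in 3 or more libraries, 1622 rose and 3529 fell. When 1 library was left out, 1989 to 2738 genes rose and 2084 to 2904 fell. The 183 differences between genotypes became 552 with no count filter, 475 with DESeq2, 1 at an adjusted p under 0.01, and 1 to 475 when 1 library was left out. In the fit with the culture as a replicate block 292 differences were called, with 2793 risen and 2940 fallen genes, and the paired fit in the 6 libraries labelled Bcl3-/- alone gave 2041 and 2012. Neither block fit ended another call of a named gene's change than those given beside the results. Over the alternatives 4619 of 4813 gene changes stayed on their side of the threshold and 194 lost their call, 299 of 527 gene differences stayed and 228 lost their call, and none changed direction. Among counts of list members 2761 of 3272 stayed within 1.5 times the main count and 511 moved. The causes were not tested.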
